A study of Mus musculus with 179 samples.

Results

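A set of 10 genes of the brain endothelium, the cells that line blood vessels, was followed through the RNA libraries of a mouse study of early life stress. They were chosen by symbol (Cldn5, Cdh5, Pecam1, Flt1, Kdr, Tek, Slc2a1, Abcb1a, Slco1a4 and Ly6c1), and all 10 were among the 37810 genes with values in the male ventral tegmental area table and the 32421 genes of the table of prefrontal, hippocampal and female libraries. The male nucleus accumbens table used here held 16239 genes and 8 of the 10, without Tek and Ly6c1. Brain endothelial cells form the blood-brain barrier. Tight junctions seal the clefts between them, transporters carry nutrients in and pump foreign compounds out, and signals of the vascular endothelial growth factor, angiopoietin and Wnt families build and maintain the vessels. Claudin 5, the product of Cldn5, is the main sealing protein of these junctions, and in male mice its loss from the nucleus accumbens has been reported after chronic social defeat.

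The study asked how stress in pup life alters the response of the adult brain to further stress. The 163 RNA samples came from C57BL/6 mice, and tissue was taken 24 h after behaviour tests. Early life stress (ELS) is compared with standard rearing, and the adult stressor was social defeat (defeat) in males and sub-threshold variable stress (STVS) in females. Mice without adult stress are called controls, and the labels name no transgene or deletion. In the male ventral tegmental area (VTA), the site of midbrain dopamine neurons, there were 6 ELS defeat, 4 ELS control, 6 standard defeat and 4 standard control libraries, and the labels give no ELS window. In the male nucleus accumbens (NAc), a target of the VTA, there were 6 defeat and 4 control libraries with ELS on postnatal days 10 to 20 (P10-20), 5 defeat and 4 control libraries with ELS on days 2 to 12 (P2-12), and 6 standard defeat and 4 standard control libraries. Male prefrontal cortex (PFC) and male hippocampus (HIP) had 6 libraries in each of the groups ELS defeat, ELS control, standard defeat and standard control, with ELS on P10-20. Female VTA, NAc and PFC each had 6 ELS STVS, 5 ELS control, 5 standard STVS and 6 standard control libraries, with ELS on P10-20. Punches of 3 mice made up a sample in male VTA and male NAc, and the others were single mice. By the series' design text, the males with RNA data were of 1 cohort and the females of another.

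Recovered reads in genes ran from 13.6 to 23.9 M per library in male NAc, and from 19.2 to 42.7 M over the male PFC, male HIP and female libraries. Values of these libraries are normalised reads, the gene counts divided by 1 factor per library, and are compared between libraries but not between genes. Male VTA values are reads per kilobase of transcript scaled to library size (RPKM), of unknown depth. Some libraries stood apart. Summed choroid plexus markers reached 19804 to 278683 normalised reads in 6 of 24 male HIP libraries and 362 to 1480 in the others. They were also high in female NAc ELS STVS 1 (46043) and female VTA standard control 3 (9325). Summed red blood cell markers exceeded 5000 in 10 libraries and summed fibroblast and meninges markers 15000 in 5, which made 13 libraries in all. All of these but male HIP standard control 6 came from mice with adult stress, so leaving them out thins mainly the stressed groups. By sex-linked genes or the choroid plexus gene Ttr, 14 libraries were doubted. For 10 female NAc libraries the adult label repeats the sex, and the group was taken from the title. The defining endothelial markers Cldn5, Pecam1 and Cdh5 were above 0 in every library, and the lowest of the 3, Cdh5, was at 360.1 normalised reads or more and at 3.71 RPKM or more.

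The 300 bases around the start of 3 of the genes (250 before to 50 after, RefSeq, build GRCm38.p6, plus strand) are shown because in the table of PFC, HIP and female libraries Abcb1a values went with those of Cldn5 (r = 0.69, against 0.30 in male VTA and 0.42 in male NAc), while Slc2a1 had the lowest r with Cldn5 of the 10 genes (0.26), as described further on. Capitals mark matches on either strand to AGGAAG, the core of sites of ETS factors, CTTTGA of TCF/LEF factors, ACGTG of the hypoxia response and TGTTTAC of FOX factors. The Cldn5 window lies at chr16:18776597-18776896, that of Slc2a1 at chr4:119108495-119108794 and that of Abcb1a at chr5:8566841-8567140.
Cldn5: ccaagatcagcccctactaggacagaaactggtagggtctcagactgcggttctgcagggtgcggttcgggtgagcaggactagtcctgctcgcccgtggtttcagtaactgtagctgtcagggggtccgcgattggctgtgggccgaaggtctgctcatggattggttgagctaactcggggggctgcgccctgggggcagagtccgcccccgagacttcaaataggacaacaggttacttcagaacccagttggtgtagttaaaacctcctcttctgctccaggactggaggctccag
Slc2a1: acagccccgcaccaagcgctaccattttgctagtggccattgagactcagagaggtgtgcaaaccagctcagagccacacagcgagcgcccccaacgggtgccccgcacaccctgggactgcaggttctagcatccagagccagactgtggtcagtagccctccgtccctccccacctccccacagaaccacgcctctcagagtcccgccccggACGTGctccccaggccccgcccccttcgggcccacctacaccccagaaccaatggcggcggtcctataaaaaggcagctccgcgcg
Abcb1a: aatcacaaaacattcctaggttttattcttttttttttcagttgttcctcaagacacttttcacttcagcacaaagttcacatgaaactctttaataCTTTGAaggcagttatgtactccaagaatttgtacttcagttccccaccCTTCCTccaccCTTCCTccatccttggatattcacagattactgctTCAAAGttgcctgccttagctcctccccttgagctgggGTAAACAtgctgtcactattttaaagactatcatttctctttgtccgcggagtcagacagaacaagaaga
The Cldn5 window held no match, the Slc2a1 window 1 ACGTG, and the Abcb1a window 2 AGGAAG, 2 CTTTGA and 1 TGTTTAC. Of all 32851 promoters in the table, 35.4% held AGGAAG, 16.0% CTTTGA, 19.6% ACGTG and 3.65% TGTTTAC. The table had 9 entries for 8 of the 10 genes, and 4, 1, 1 and 1 of these entries held the same motifs. It had none for Cdh5 and Pecam1, whose r with Cldn5 was higher than that of Abcb1a (0.76 and 0.74). Any link of the motifs to how the genes vary together was not tested.

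Within male VTA, where values per length allow genes to be ranked, Slc2a1, the glucose transporter GLUT1 of the barrier, was highest with a median of 43.2 RPKM over 20 libraries (35.6 to 52.3). Ly6c1, a surface protein of brain capillaries, followed at 37.0 RPKM (31.1 to 41.6), then Cldn5 at 27.4 RPKM (23.9 to 34.1) and Slco1a4, an organic anion transporter, at 16.7 RPKM (14.1 to 19.3). The ranges of Slc2a1 and Ly6c1 overlapped, as did those of Ly6c1 and Cldn5, while Slco1a4 lay below all 3. Abcb1a, which encodes the efflux pump P-glycoprotein, and Flt1, a receptor of vascular endothelial growth factor that also acts as a decoy, lay side by side at 8.64 and 8.52 RPKM. Pecam1, an adhesion molecule of endothelial contacts, had a median of 6.46 RPKM, Cdh5, the cadherin of endothelial adherens junctions, 4.86 RPKM, and Tek, the receptor of angiopoietins, 4.34 RPKM. Kdr, the main signalling receptor of vascular endothelial growth factor, was lowest at 2.57 RPKM (2.15 to 3.35). Related genes that could share reads were low in male VTA: Ly6c2 reached at most 0.246 RPKM, Slco1a5 0.090 RPKM and Abcb1b 0.883 RPKM. In the other sets Ly6c2 reached at most 17.6 normalised reads and Slco1a5 126, while Abcb1b had medians of 60.5 to 148 normalised reads.

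The clearest differences lay between brain regions. In female standard controls, 9 of the 10 genes were higher in VTA than in NAc at an adjusted p under 0.05 (limma, Benjamini-Hochberg over 14000 genes), against 42.5% of all genes tested. The median log2 fold change of the 10 was 0.41, against 0.03 over all genes. In 8 of the 10 the ranges of the groups did not overlap, with the 6 VTA libraries above the 6 NAc libraries, as for 33.6% of all genes. VTA standard control 3 was among the doubted libraries (Ddx3y at 145 normalised reads) and had a choroid plexus sum of 9325. Some of the NAc controls had the repeated sex label. The labels do not say whether the regions came from the same mice, and with the replicate number as a block the VTA counts were again 9 of 10 over NAc and 8 of 10 over PFC. In tissue punches fewer endothelial cells and less RNA per endothelial cell cannot be told apart.

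Among the junction genes, Cldn5 had 1147 normalised reads at the lowest, 1278 at the median and 1607 at the highest in VTA, against 918, 1018 and 1192 in NAc. The groups overlapped, with a log2 fold change of 0.36 ± 0.12 (SE; adjusted p = 0.00779, limma). Cdh5 had 545, 618 and 744 normalised reads in VTA and 405, 440.4 and 471 in NAc, and no NAc library reached the VTA range (0.53 ± 0.11, adjusted p = 0.000186). Pecam1 likewise separated the groups, with 717, 869 and 1063 normalised reads in VTA against 546, 610.4 and 627 in NAc (0.52 ± 0.11, adjusted p = 0.000178).

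Of the growth factor receptors, Flt1 had 2805, 3134 and 3555 normalised reads in VTA and 2319, 2565 and 2745 in NAc (0.32 ± 0.09, adjusted p = 0.0039, limma). Tek had 600.2, 659 and 814 normalised reads in VTA and 475, 525 and 551 in NAc (0.39 ± 0.11, adjusted p = 0.00201). Both separated the groups completely. Kdr was the gene that did not pass, with 610.1, 694 and 761 normalised reads in VTA and 566, 651 and 696 in NAc, overlapping ranges and a log2 fold change of 0.11 ± 0.09.

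The transporters gave the largest and the smallest of the called differences. Slc2a1 averaged 3503 ± 352 normalised reads in VTA and 2139 ± 161 in NAc (SD, n = 6 each), a log2 fold change of 0.71 ± 0.09 (adjusted p = 5.81e-07, limma). Abcb1a had 1235, 1542 and 1688 normalised reads in VTA against 1056, 1121 and 1221 in NAc (0.42 ± 0.10, adjusted p = 0.000507). Slco1a4 also had separate ranges, with 1959.9, 2048 and 2275 normalised reads in VTA and 1617, 1775 and 1881 in NAc (0.24 ± 0.09, adjusted p = 0.0221). It lost its call with edgeR (adjusted p = 0.0595) and without female VTA standard control 4 (adjusted p = 0.0505, limma). Ly6c1 had 912, 1024 and 1142 normalised reads in VTA and 616, 710.1 and 822 in NAc (0.53 ± 0.10, adjusted p = 8.3e-05).

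**Figure D1:**
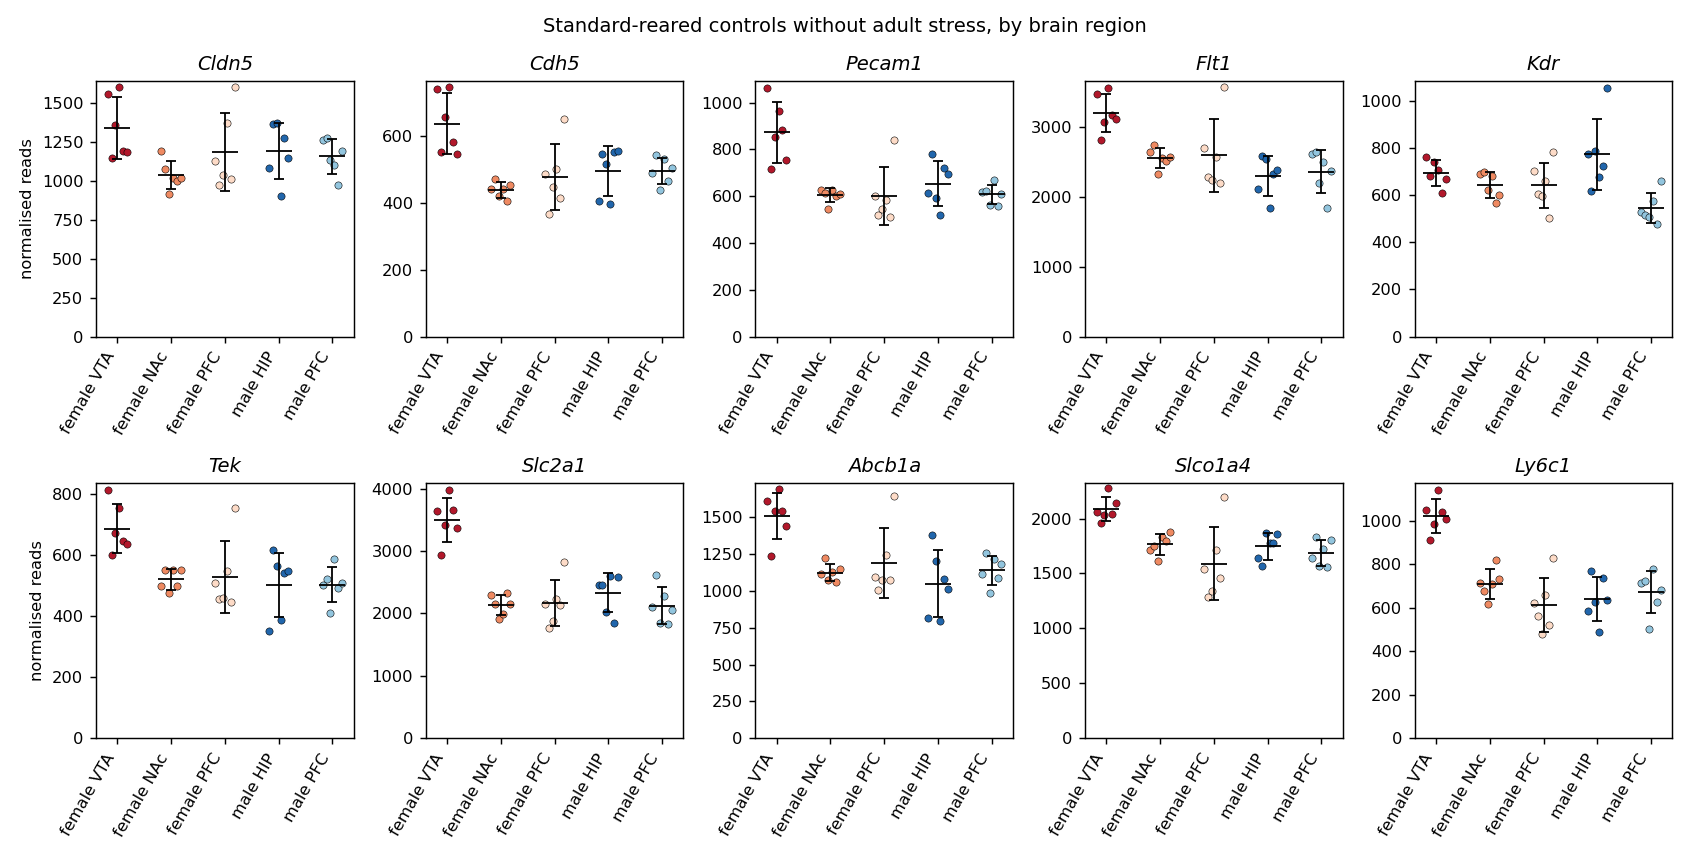
Normalised reads of the 10 genes in standard-reared controls, 1 panel per gene and 1 dot per library, for female VTA, female NAc, female PFC, male HIP and male PFC (bars, mean ± SD, n = 6 each, y axes start at 0). Female VTA lies above female NAc for 9 of the 10 genes by adjusted p, and 1 female PFC library stands above the other 5 in several panels.

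Other genes of the pathway are counted against the 42.5% of all genes that were higher and the 38.6% that were lower in VTA than in NAc. Of the junction partners 6 of 7 tested rose in VTA over NAc, led by Cgn, the scaffold cingulin, at a log2 fold change of 1.66, with Jam2 at 0.65. Among other barrier transporters 6 of 9 rose and 2 fell, with Slc16a1, a lactate carrier, at 1.32, Abcg2, an efflux pump, at 0.78 and Mfsd2a, a lipid carrier, at 0.72. Of vascular ligands and co-receptors 7 of 8 rose and 1 fell, with Pgf at 1.79, Angpt1, the ligand of Tek, at 1.35 and Flt4 at 0.83. The Wnt barrier list had 4 of 10 up, near the share of all genes, and 2 down: Wnt7a, a ligand that induces barrier genes, fell by 1.52 on the log2 scale and Reck, its co-receptor, by 0.38, while Sox17 rose by 0.45. Of 7 adhesion and activation genes 4 rose, among them Icam2 (0.60), Plvap (0.58) and Vwf (0.43).

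Against PFC the female VTA was higher for 8 of the 10 genes, and 40% of all genes were called in that direction. Ly6c1 had 912, 1024 and 1142 normalised reads in VTA and 479, 593 and 828.8 in PFC (log2 fold change 0.76 ± 0.10, adjusted p = 1.02e-06, limma). Slc2a1 averaged 3503 ± 352 normalised reads in VTA and 2163 ± 366 in PFC (0.71 ± 0.09, adjusted p = 6.88e-07). These were the 2 genes whose ranges did not overlap, against 30.8% of all genes. Pecam1 (0.55 ± 0.11), Cdh5 (0.43 ± 0.11), Slco1a4 (0.41 ± 0.09), Tek (0.39 ± 0.11), Abcb1a (0.36 ± 0.10) and Flt1 (0.32 ± 0.09) were called as well. Cldn5 had 1147, 1278 and 1607 normalised reads in VTA and 971, 1084 and 1607 in PFC and was not called (0.19 ± 0.12, adjusted p = 0.146), nor was Kdr (0.13).

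One PFC library bore on this. Female PFC standard control 6 was the highest of its group in all 10 genes, with 1607 normalised reads of Cldn5, 3569 of Flt1 and 1646 of Abcb1a. It also had the highest sums of its group for mural cells (11130), fibroblasts and meninges (5003), macrophages and monocytes (635), microglia (7969) and astrocytes (33870 normalised reads), whose part in the result was not tested. Without it all 10 genes were called, Cldn5 at a log2 fold change of 0.28 (adjusted p = 0.0169, limma). In the other lists, to be read against 40% of all genes higher and 38.8% lower, VTA exceeded PFC for 6 of 7 junction partners (among them Jam2 1.08 and Cgn 0.63 on the log2 scale), for 3 of 9 transporters with 1 lower (Slc16a1 1.08, Mfsd2a 0.75, Slc3a2 -0.30), near or under those shares, and for 6 of 8 ligands with 2 lower (Pgf 0.69, Flt4 0.64, Tie1 0.55). The Wnt list had 3 of 10 higher and 2 lower (Wnt7b -1.42, Apcdd1 -0.40, Sox17 0.33), and the adhesion list 4 of 7 higher (Icam2 0.99, Emcn 0.67, Vwf 0.42).

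Markers of other cells differed between these regions in both directions, and their part in the results was not tested. Summed markers of mural cells, which wrap the vessels, had a median of 11066 normalised reads in VTA (10160.5 to 14771), against 8313 in NAc (7900.4 to 8865) and 7366 in PFC (6639 to 11130), with all 9 markers measured and none at 0. Fibroblast and meninges sums (7 markers) had medians of 2841 in VTA, 1564 in NAc and 2280 in PFC. Myelin sums (4 markers) differed far more, with medians of 468656, 140623 and 38993 normalised reads in the same order. Microglia sums (4 markers) ran the other way, with 3862 to 4707 normalised reads in VTA, against 5999.9 to 8258 in NAc and 5810 to 7969 in PFC. Astrocyte sums (4 markers) had medians of 23692 in VTA, 27257 in NAc and 23855 in PFC. Neuron sums ran from 88337 to 108596 in VTA, 68946 to 89079 in NAc and 145241 to 165888 in PFC.

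Between female NAc and PFC 1 of the 10 genes was called. Ly6c1 had 616, 710.1 and 822 normalised reads in NAc and 479, 593 and 828.8 in PFC (log2 fold change 0.23 ± 0.10, adjusted p = 0.0472, limma), while 35.7% of all genes were higher in NAc. The call did not survive in most alternatives, given with the processing settings. The median of the 10 genes was 0.00 and the largest difference the other way was Cldn5 at -0.18 ± 0.12. Of all genes 34.7% were lower in NAc. Of the other lists, 2 junction partners rose and 1 fell (Cgn -1.03, Jam2 0.43), 1 transporter rose and 5 fell (Slc7a5 -0.80, Slc3a2 -0.70, Abcg2 -0.59), and 3 ligands fell (Angpt1 -1.73, Pgf -1.10, Nrp1 -0.22). Of the Wnt list 3 rose and 2 fell (Wnt7a 1.76, Wnt7b -1.71, Apcdd1 -0.61), and of the adhesion list 3 rose and 1 fell (Plvap -0.51, Emcn 0.45, Icam2 0.38).

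In male standard controls HIP exceeded PFC for 1 of the 10 genes. Kdr had 617 normalised reads at the lowest, 750.1 at the median and 1054 at the highest in HIP, and 478, 522 and 659.5 in PFC. The ranges overlapped slightly and the log2 fold change was 0.49 ± 0.12 (adjusted p = 0.00349, limma), where 23.4% of all genes were called higher. None of the 10 genes had separate ranges, against 12.3% of all genes. The remaining 9 lay between -0.14 and 0.13 on the log2 scale, Cldn5 at 0.03 ± 0.10. Choroid plexus sums reached 189593, 278683 and 236841 normalised reads in 3 of the 6 HIP controls. Without these and the doubted PFC libraries the median of the 10 genes was 0.16, against 0.01 with them, and Kdr was 0.40 (adjusted p = 0.0268). Of all genes 23.3% were lower in HIP. In the lists, Ocln, encoding occludin, rose by 1.20 (2 of the junction partners up, 0 down), Slc16a1 by 0.38 (1 transporter), Nrp1, a co-receptor of Kdr, by 1.27, Angpt2 by 0.78 and Pgf by 0.49 (3 ligands up, 1 down). Fzd4 (1.03), Wnt7a (0.98) and Lef1 (0.32) rose in the Wnt list with 1 down, and Vcam1 (0.85) and Emcn (0.32) in the adhesion list.

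Male and female PFC controls gave 0 of the 10 genes at adjusted p under 0.05, and 16 genes overall (0.114%). Kdr was the only one of the 10 at an unadjusted p under 0.05, with 478, 522 and 659.5 normalised reads in males and 500.5, 632 and 781 in females (-0.23 ± 0.10), as were 6.84% of all genes. Sex and cohort cannot be told apart here.

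The stress and rearing comparisons asked whether ELS, adult stress or their combination altered these genes, and none passed. Over 41 comparisons and 388 tests of the 10 genes, limma called 0 of them and 0 genes of any kind at adjusted p under 0.05, that is 0% in every one. The lowest adjusted p of the 10 genes was 0.160, for Cdh5 in male PFC after defeat that followed ELS. The edgeR test on whole reads, run in the 36 comparisons outside male VTA, also called 0 genes. At an unadjusted p under 0.05 limma gave 187 to 2337 genes per comparison and edgeR 193 to 2401. Of the 388 tests of the 10 genes 32 fell under that line (8.25%), against 6.27% of all gene tests. Their log2 fold changes ran from -0.32 to 0.62. The values below therefore describe differences that did not pass the adjustment. Comparisons of a region share groups, so they are not independent. The 10 genes also varied together within groups, so a count of them is not a count of separate observations.

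**Figure D2:**
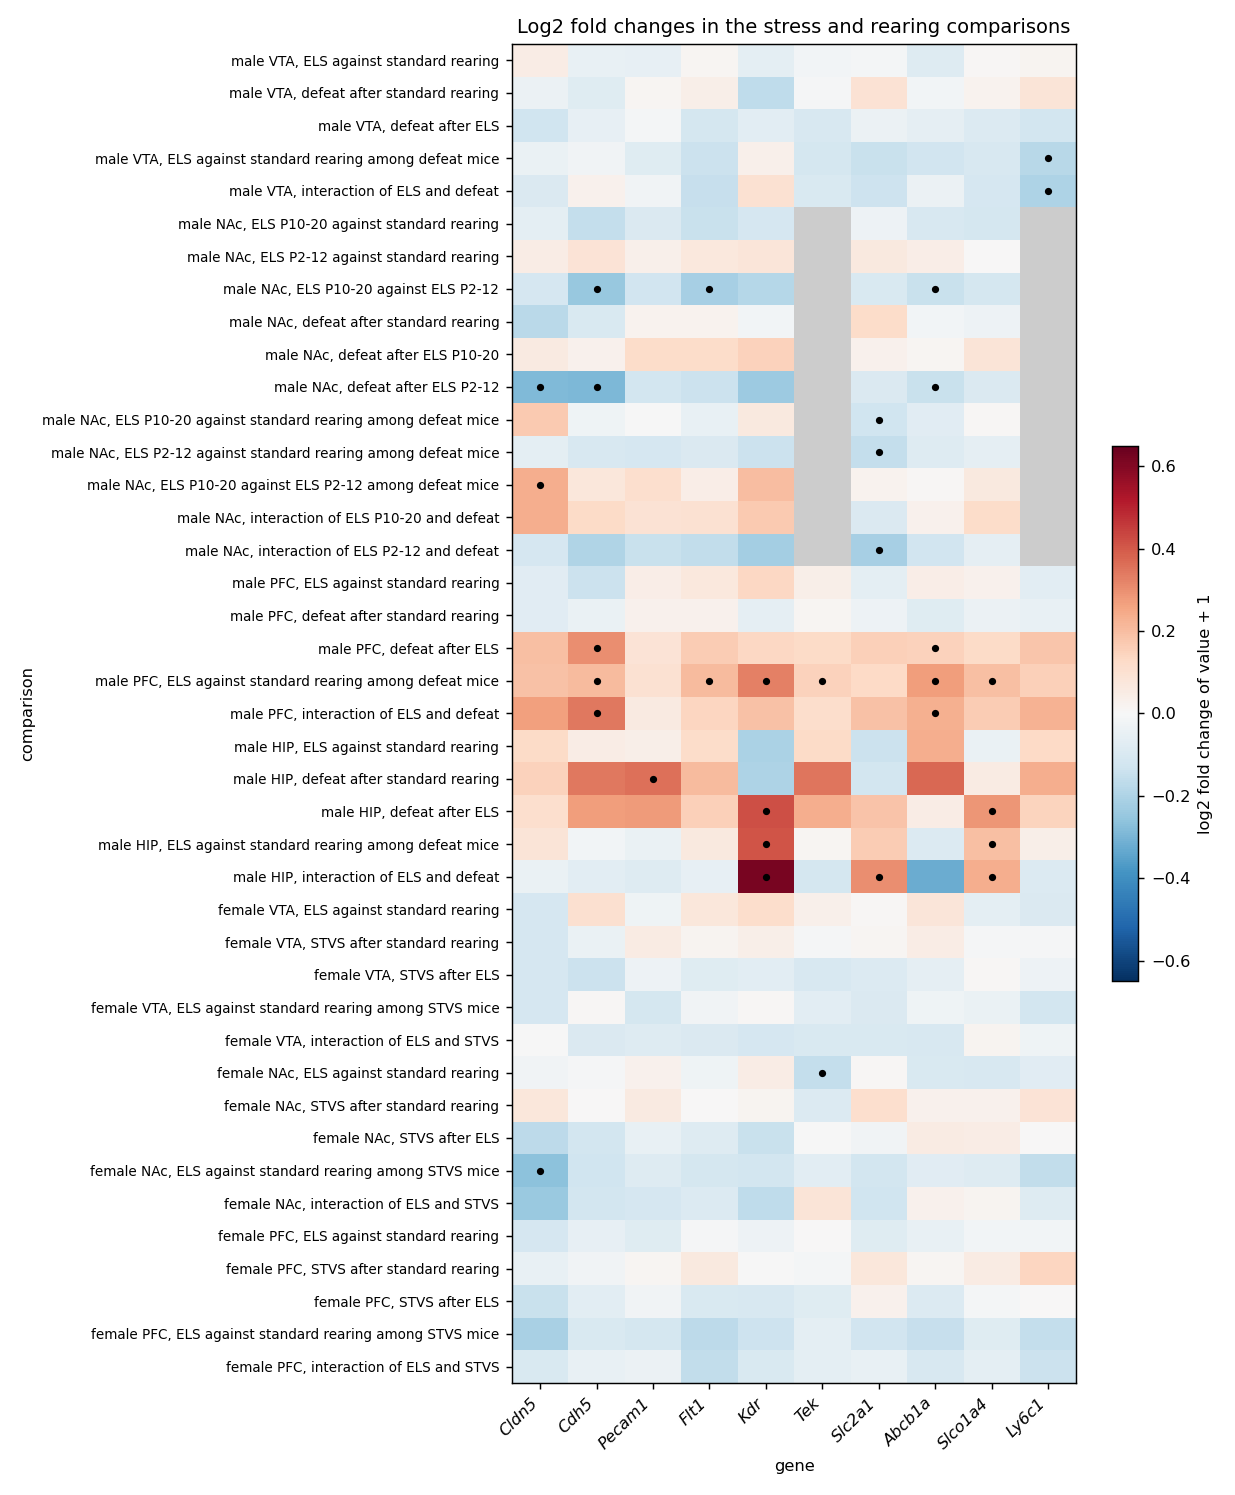
Log2 fold changes (colour, red higher and blue lower in the group named first) of the 10 genes in the 41 stress and rearing comparisons, 1 row each; a dot marks an unadjusted p under 0.05 (32 of 388) and grey marks genes not in the male NAc table used here. No cell passed the adjusted threshold, and the dots gather in male PFC among defeat mice, where 6 of 10 genes carry one. The genes vary together within groups, so dots of 1 row are not independent.

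Cldn5 was tested after adult stress in 15 comparisons, by limma and by an exact permutation test, two-sided, on the log2 values with adjustment over the 15. In male NAc, defeat after P2-12 gave 852, 956, 1085, 1169.7 and 1219.9 normalised reads, against 1227, 1287, 1288 and 1314 in the ELS controls of that window. All 5 defeat libraries lay below all 4 controls. The log2 fold change was -0.29 ± 0.12 (adjusted p = 0.605, limma), and the exact permutation p was 0.0159, adjusted 0.238, where the smallest possible was 0.00794. After standard rearing, defeat gave 851 at the lowest, 1124 at the median and 1321 at the highest, against 1165, 1183, 1238 and 1372 normalised reads in standard controls. The groups overlapped (-0.18 ± 0.12, exact p = 0.124, adjusted 0.403), although 5 of 6 defeat libraries were below the control mean. After P10-20 the values were 1048, 1210.1 and 1407 with defeat and 927, 1135, 1258 and 1490.2 normalised reads without (0.06 ± 0.12, exact p = 0.714). The interactions of ELS and defeat were 0.23 ± 0.16 for P10-20 and -0.11 ± 0.17 for P2-12 (adjusted p = 0.999 and 0.939, limma), so the windows and rearing were not shown to differ in this response.

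In male VTA group means of Cldn5 were lower with defeat after either rearing, and neither difference passed. Defeat after ELS gave 23.9, 25.8 and 31.5 RPKM (lowest, median and highest), against 24.7, 26.6, 31.4 and 34.1 RPKM in ELS controls (-0.13 ± 0.08, exact p = 0.286). Defeat after standard rearing gave 24.9, 27.5 and 30.0 RPKM, against 26.9, 27.7, 28.1 and 29.4 RPKM in standard controls (-0.04 ± 0.08, exact p = 0.543). All these ranges overlapped, with 5 of 6 defeat libraries below the control mean after ELS and 4 of 6 after standard rearing.

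In male PFC, defeat after ELS gave 1067, 1279.7 and 1363 normalised reads of Cldn5, against 908, 1075 and 1392 in ELS controls, with 1 of 6 defeat libraries below the control mean (0.19 ± 0.10, exact p = 0.0909, adjusted 0.403). Defeat after standard rearing gave 852, 1101 and 1369, against 975, 1164 and 1275 normalised reads in standard controls (-0.07 ± 0.10, exact p = 0.506). The second sign turned without doubted libraries (0.02), and the responses were not shown to differ (interaction 0.27 ± 0.14, adjusted p = 0.837, limma). In male HIP, defeat after ELS gave 884, 1286 and 2227 normalised reads, against 865, 1431 and 1474 in ELS controls (0.11 ± 0.19, exact p = 0.673). Defeat after standard rearing gave 973, 1349 and 1543, against 904, 1212 and 1374 normalised reads in standard controls (0.15 ± 0.19, exact p = 0.292). Male HIP had the widest spread of the 7 region and sex sets, and both of its signs turned without the libraries high in blood or meningeal markers (-0.09 after ELS and -0.04 after standard rearing).

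In females, STVS after ELS came with lower group means of Cldn5 in all 3 regions, and none passed. The regions may come from the same mice, so the 3 values are not independent. In NAc it gave 743, 926 and 1005 normalised reads, against 967, 967, 1029, 1033 and 1098 in ELS controls. All 6 STVS libraries were below the control mean (-0.17 ± 0.09, exact p = 0.0519, adjusted 0.39). In PFC it gave 877, 985 and 1111, against 942, 999.6, 1102, 1142 and 1249 normalised reads (-0.15 ± 0.12, exact p = 0.134), and in VTA 1008, 1132 and 1358, against 1188, 1191, 1195, 1273 and 1337 (-0.11 ± 0.09, exact p = 0.208). In each of these, 5 of 6 STVS libraries were below the control mean, and the ranges overlapped.

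After standard rearing the log2 fold changes were smaller in size in female NAc and PFC, while that in VTA was again -0.11. STVS gave 859, 959, 1161, 1193 and 1331 normalised reads of Cldn5 in NAc, against 918, 1018 and 1192 in standard controls (0.07 ± 0.09, exact p = 0.537). In PFC STVS gave 1015, 1055, 1059.7, 1105 and 1466, against 971, 1084 and 1607 (-0.05 ± 0.12, exact p = 0.818), and in VTA 1134, 1148, 1180.4, 1313 and 1422, against 1147, 1278 and 1607 (-0.11 ± 0.09, exact p = 0.329). Ranges overlapped in all 3 regions. The interaction of ELS and STVS called none of the 10 genes in any female region (limma). Over the 15 comparisons adjusted exact p-values ran from 0.238 to 0.818, and the smallest p that the permutations allowed was 0.00216 to 0.00794.

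**Figure D3:**
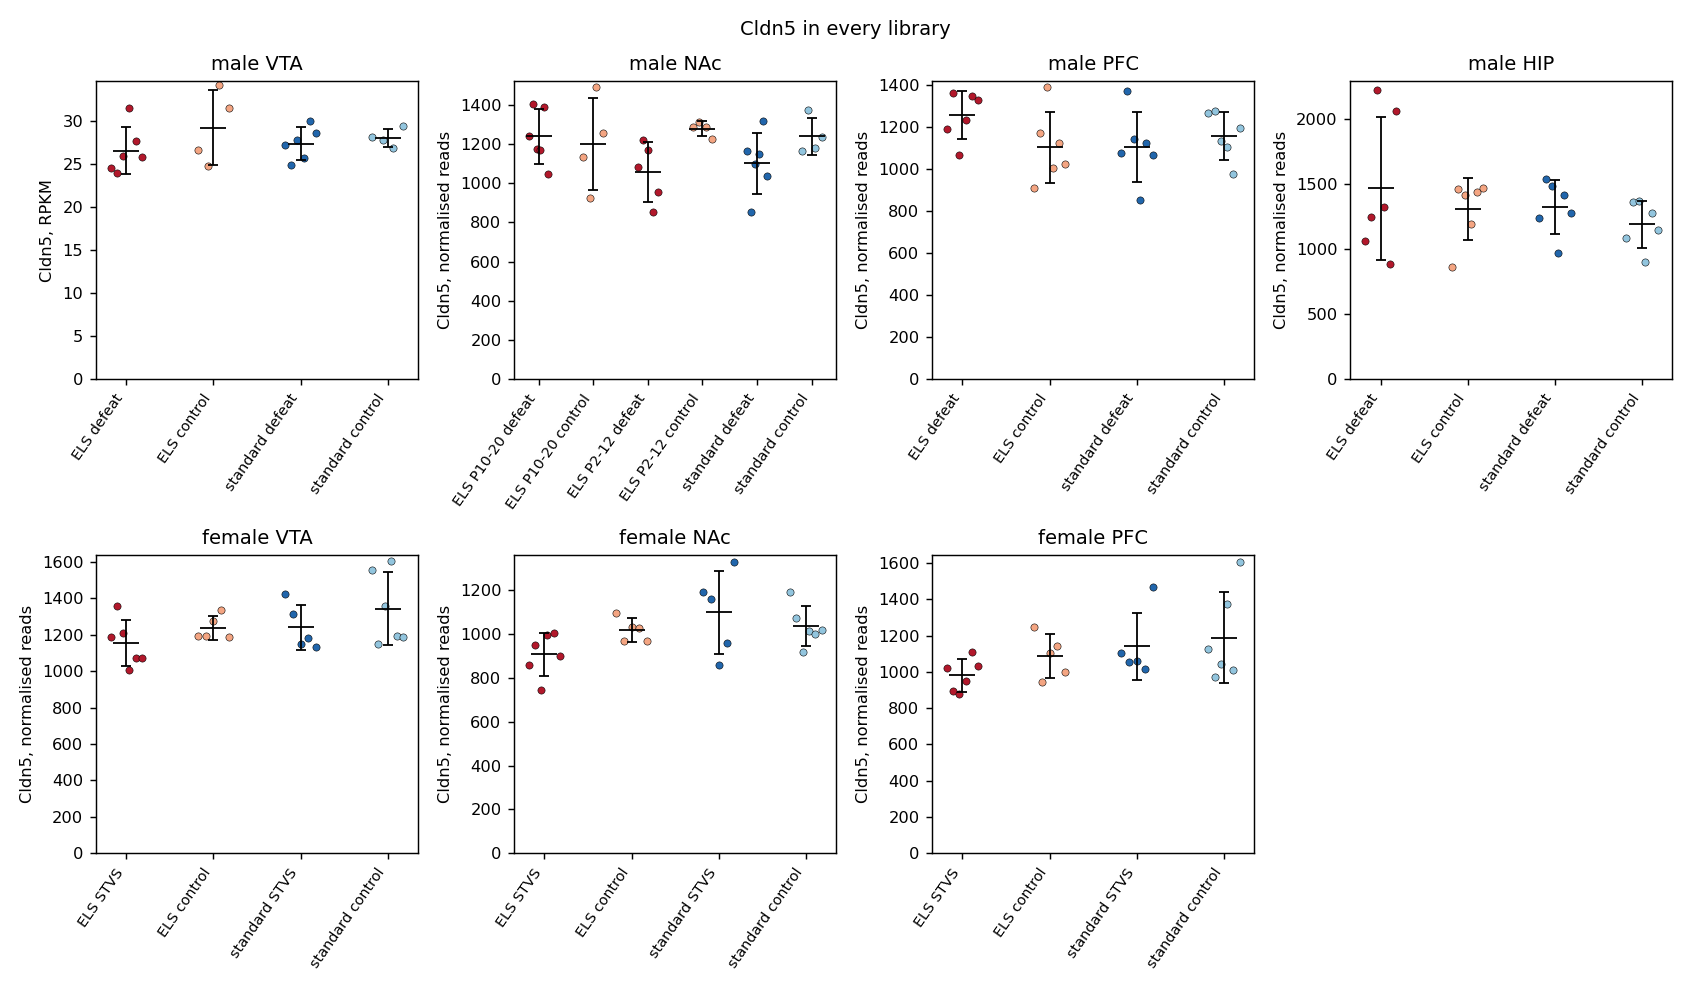
Cldn5 in every library, 1 panel per region and sex and 1 dot per library (RPKM in male VTA, normalised reads elsewhere, y axes start at 0, bars, mean ± SD, n = 4 to 6). The groups overlap in every panel except that the 5 male NAc defeat libraries after P2-12 (852 to 1219.9) lie below the 4 ELS controls of that window (1227 to 1314).

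Rearing comparisons of Cldn5 gave the lowest unadjusted p in female NAc among STVS mice. ELS gave 743, 926 and 1005 normalised reads, against 859, 959, 1161, 1193 and 1331 after standard rearing. The ranges overlapped, and the log2 fold change was -0.27 ± 0.09 (unadjusted p = 0.00945, adjusted p = 0.313, limma), in a comparison where 13.3% of all genes had an unadjusted p under 0.05. It was -0.20 (unadjusted p = 0.224) without the libraries whose adult label repeats the sex, with a smaller number of libraries. Among male NAc defeat mice P10-20 gave 1048, 1210.1 and 1407 normalised reads, against 852, 956, 1085, 1169.7 and 1219.9 after P2-12 (0.23 ± 0.11, adjusted p = 0.643, limma; 7.61% of genes unadjusted). Without adult stress Cldn5 differed by -0.11 ± 0.09 in female VTA, -0.02 ± 0.09 in female NAc, -0.11 ± 0.12 in female PFC, -0.08 ± 0.10 in male PFC, 0.13 ± 0.19 in male HIP and 0.05 ± 0.09 in male VTA, ELS against standard rearing on the log2 scale. In male NAc it differed by -0.06 ± 0.13 for P10-20 and 0.05 ± 0.13 for P2-12. None of these passed. Cldn5 was negative in 27 of the 41 comparisons, which include interactions and share groups, so these signs are not independent.

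In male NAc the other members of the group were low after P2-12 with defeat too. Cdh5 had 389, 410.2, 503, 508 and 545 normalised reads with defeat, against 548, 556, 578 and 609.6 without. Its groups did not overlap (-0.29 ± 0.11, adjusted p = 0.57, limma), and with Cldn5 it made 2 of 8 genes with separate ranges below the controls, against 1.64% of all genes. Abcb1a had 1057, 1127, 1204, 1227 and 1298 normalised reads with defeat and 1185, 1275, 1277 and 1492 without, which overlapped (-0.14 ± 0.07, adjusted p = 0.632). All 8 genes had negative log2 fold changes, with a median of -0.14, and 3 of 8 had an unadjusted p under 0.05, as did 7.71% of all genes. For defeat after P10-20 all 8 were positive (0.01 to 0.15, median 0.07). Mural cell sums (5 of 9 markers measured) had a median of 1553 normalised reads with defeat (1452 to 1862) and 1852 without (1722 to 2036), and their part in the result was not tested. Of the other lists, 0 of 4 junction partners, 0 of 5 transporters and 0 of 7 Wnt genes had an unadjusted p under 0.05 in that comparison, and 2 of 7 ligands did, both lower, as did 4 of 6 adhesion genes, 2 higher and 2 lower.

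Without defeat, P10-20 gave lower values than P2-12 in all 8 genes (median -0.14). Flt1 had 2016, 2245, 2356 and 2673 normalised reads after P10-20, against 2439, 2659.5, 2692 and 2963 after P2-12 (-0.21 ± 0.10, adjusted p = 0.61, limma). Cdh5 had 420.1, 456, 491 and 578, against 548, 556, 578 and 609.6 normalised reads (-0.24 ± 0.11, adjusted p = 0.613). In both the ranges overlapped. Abcb1a had 1151, 1160.3, 1187 and 1214 normalised reads after P10-20, against 1185, 1275, 1277 and 1492 after P2-12 (-0.15 ± 0.07, adjusted p = 0.639). Here 7.64% of all genes had an unadjusted p under 0.05. The P2-12 controls are the same 4 libraries in this comparison and in that of defeat after P2-12, so the 2 sets of low values share their control.

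Slc2a1 in male NAc was lower after either ELS window among defeat mice. P10-20 gave 2626, 2775 and 3549.8 normalised reads, against 2925, 3117 and 3357 after standard rearing (-0.13 ± 0.06, adjusted p = 0.981, limma; 4.62% of genes unadjusted). P2-12 gave 2633, 2805, 2827, 2882 and 2977, against the same standard defeat libraries (-0.15 ± 0.07, adjusted p = 0.82; 6.01%). In both the ranges overlapped. The interaction of P2-12 and defeat was -0.21 ± 0.10 (adjusted p = 0.796; 6.03%). The other male NAc comparisons held none of the 8 genes at an unadjusted p under 0.05, against 6.77% of all genes for P10-20 and 3.46% for P2-12 over standard rearing, 3.39% for defeat after standard rearing, 8.41% for defeat after P10-20 and 3.93% for the P10-20 interaction.

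In male VTA Ly6c1 was the one gene to stand out. ELS among defeat mice gave 31.1, 34.1 and 39.6 RPKM, against 36.7, 39.1 and 41.4 RPKM after standard rearing. The groups overlapped (-0.18 ± 0.06, unadjusted p = 0.00438, adjusted p = 0.838, limma), where 5.77% of all genes had an unadjusted p under 0.05. The interaction was -0.20 ± 0.09 (adjusted p = 0.817; 5.46%). None of the 10 genes had an unadjusted p under 0.05 for ELS alone (2.03% of all genes), for defeat after standard rearing (6.56%) or for defeat after ELS (4.57%).

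Male PFC held the largest cluster of low unadjusted p-values. Among defeat mice ELS gave higher means than standard rearing in all 10 genes, 6 of which had an unadjusted p under 0.05, against 8.44% of all genes. The genes varied together within groups (median r 0.55, described further on), so these 6 are not separate observations. Kdr had 527, 685 and 740.3 normalised reads (lowest, median and highest), against 444, 522 and 564 after standard rearing (log2 fold change 0.33 ± 0.09, adjusted p = 0.442, limma). Abcb1a had 1118, 1304 and 1584, against 975, 1081 and 1194 normalised reads (0.27 ± 0.07, adjusted p = 0.442). The ranges of both overlapped. Flt1 had 2321, 2679.5 and 3341 normalised reads after ELS and 2187, 2448 and 2546 after standard rearing (0.21 ± 0.09). These ranges overlapped too. Cdh5 had 476, 562 and 651 normalised reads after ELS and 415, 485 and 545 after standard rearing (0.21 ± 0.08). Slco1a4 had 1545, 1801 and 2416 after ELS and 1510.2, 1668 and 1737 normalised reads after standard rearing (0.19 ± 0.08). Tek had 489, 554 and 663 normalised reads after ELS and 477, 504 and 555 after standard rearing (0.15 ± 0.07). All of these overlapped, and the adjusted p-values of the 6 genes ran from 0.442 to 0.59 (limma).

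Some of these male PFC defeat libraries were high in blood markers, whose part in the result was not tested. Summed red blood cell markers (5 of 7 measured, none at 0) reached 9197 and 20273 normalised reads in male PFC ELS defeat 1 and 6 and 16111 in standard defeat 2, and 850.4 to 3717 in the other male PFC libraries. Without these 3 libraries the median log2 fold change of the 10 genes was 0.10, against 0.19 with them, and 3 of the 10 had an unadjusted p under 0.05. Kdr was then 0.28, Abcb1a 0.18, Flt1 0.10 and Slco1a4 0.07. Mural cell sums had medians of 8957 normalised reads after ELS and 8395 after standard rearing. In the other lists 2 of 7 junction partners, 2 of 9 transporters, 3 of 9 ligands, 3 of 10 Wnt genes and 3 of 7 adhesion genes had an unadjusted p under 0.05, all higher after ELS, and none passed the adjustment.

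Defeat after ELS in male PFC gave the lowest adjusted p of the stress comparisons. Cdh5 had 476, 562 and 651 normalised reads with defeat and 413, 439 and 519 without, overlapping in part (0.30 ± 0.08, unadjusted p = 0.000901, adjusted p = 0.160, limma). Abcb1a had 1118, 1304 and 1584 with defeat and 1084, 1162 and 1263 normalised reads without (0.15 ± 0.07, adjusted p = 0.292). All 10 genes were positive and 2 had an unadjusted p under 0.05, in a comparison where 16.7% of all genes did, so their share was near the background. Without the libraries high in blood markers Cdh5 was 0.24 and Abcb1a 0.06. The interactions were 0.35 ± 0.11 for Cdh5 and 0.23 ± 0.10 for Abcb1a (adjusted p = 0.824 each; 5.94% of genes unadjusted). The median interaction of the 10 genes was 0.19, all 10 positive, and 0.06 without the libraries high in blood or meningeal markers. ELS alone and defeat after standard rearing held none of the 10 genes, against 2.22% and 3.35% of all genes.

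In male HIP Kdr and Slco1a4 had their highest group means in mice with both stresses. Slco1a4 had 1797, 2055 and 2493 normalised reads with defeat after ELS, against 1519.6, 1726 and 1779 in ELS controls. All 6 defeat libraries lay above the 6 controls (0.29 ± 0.07, unadjusted p = 0.000268, adjusted p = 0.455, limma), a separation found upward in 0.136% of all genes. Kdr had 704, 892 and 1067 normalised reads with defeat after ELS, against 450.3, 662 and 926 in ELS controls (0.42 ± 0.15, adjusted p = 0.463), which overlapped. In that comparison 2 of 10 genes and 7.88% of all genes had an unadjusted p under 0.05.

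Among defeat mice of male HIP, Kdr had 704, 892 and 1067 normalised reads after ELS and 614, 669 and 695 after standard rearing. Its 6 ELS libraries lay above all 6 standard libraries (0.41 ± 0.15, adjusted p = 0.958, limma), as in 0.0286% of all genes. Slco1a4 had 1797, 2055 and 2493 after ELS and 1673, 1802 and 1971 normalised reads after standard rearing (0.19 ± 0.07, adjusted p = 0.958). The share of all genes at an unadjusted p under 0.05 was 2.89%. The interactions were 0.62 ± 0.21 for Kdr, 0.24 ± 0.09 for Slco1a4 and 0.30 ± 0.13 for Slc2a1 (adjusted p = 0.368, 0.368 and 0.396; 11.8% of genes unadjusted). These were the 3 positive ones, and the other 7 genes were negative, down to -0.32 for Abcb1a. The median of the 10 was -0.06, and it was 0.21 without doubted libraries and -0.21 without those high in blood or meningeal markers. Defeat after standard rearing gave Pecam1 values of 643, 829.8 and 1042 normalised reads, against 519, 653 and 782 in standard controls (0.36 ± 0.17, adjusted p = 0.333; 14.4%). ELS alone held none (6.46%).

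Single libraries stood apart in male HIP, and the part of their marker levels in the results was not tested. ELS defeat 3 and 6 had 1153 and 1053 normalised reads of Cdh5 and 2227 and 2064 of Cldn5, the highest of the group, with fibroblast and meninges sums of 23346 and 22748 and mural sums of 21439 and 19797. The other HIP libraries had fibroblast and meninges sums of 2820 to 18212. The 7 of 24 HIP libraries high in blood or meningeal markers were ELS defeat 3, 5 and 6, standard defeat 2, 3 and 5 and standard control 6. Leaving them out thus also cut the defeat groups. Without them Slco1a4 was 0.21 and Kdr 0.36 for defeat after ELS (unadjusted p = 0.00747 and 0.0745, limma), while the median of the 10 genes was -0.01, against 0.21 with them. For ELS among defeat mice Kdr was 0.37 (unadjusted p = 0.114) and Slco1a4 0.16 (unadjusted p = 0.0689). Pecam1 after defeat was then 0.22, and Slc2a1 had an interaction of 0.09. Without the libraries with choroid plexus RNA, Kdr was 0.47 and Slco1a4 0.32 for defeat after ELS, and the Slc2a1 interaction was 0.12.

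**Figure D4:**
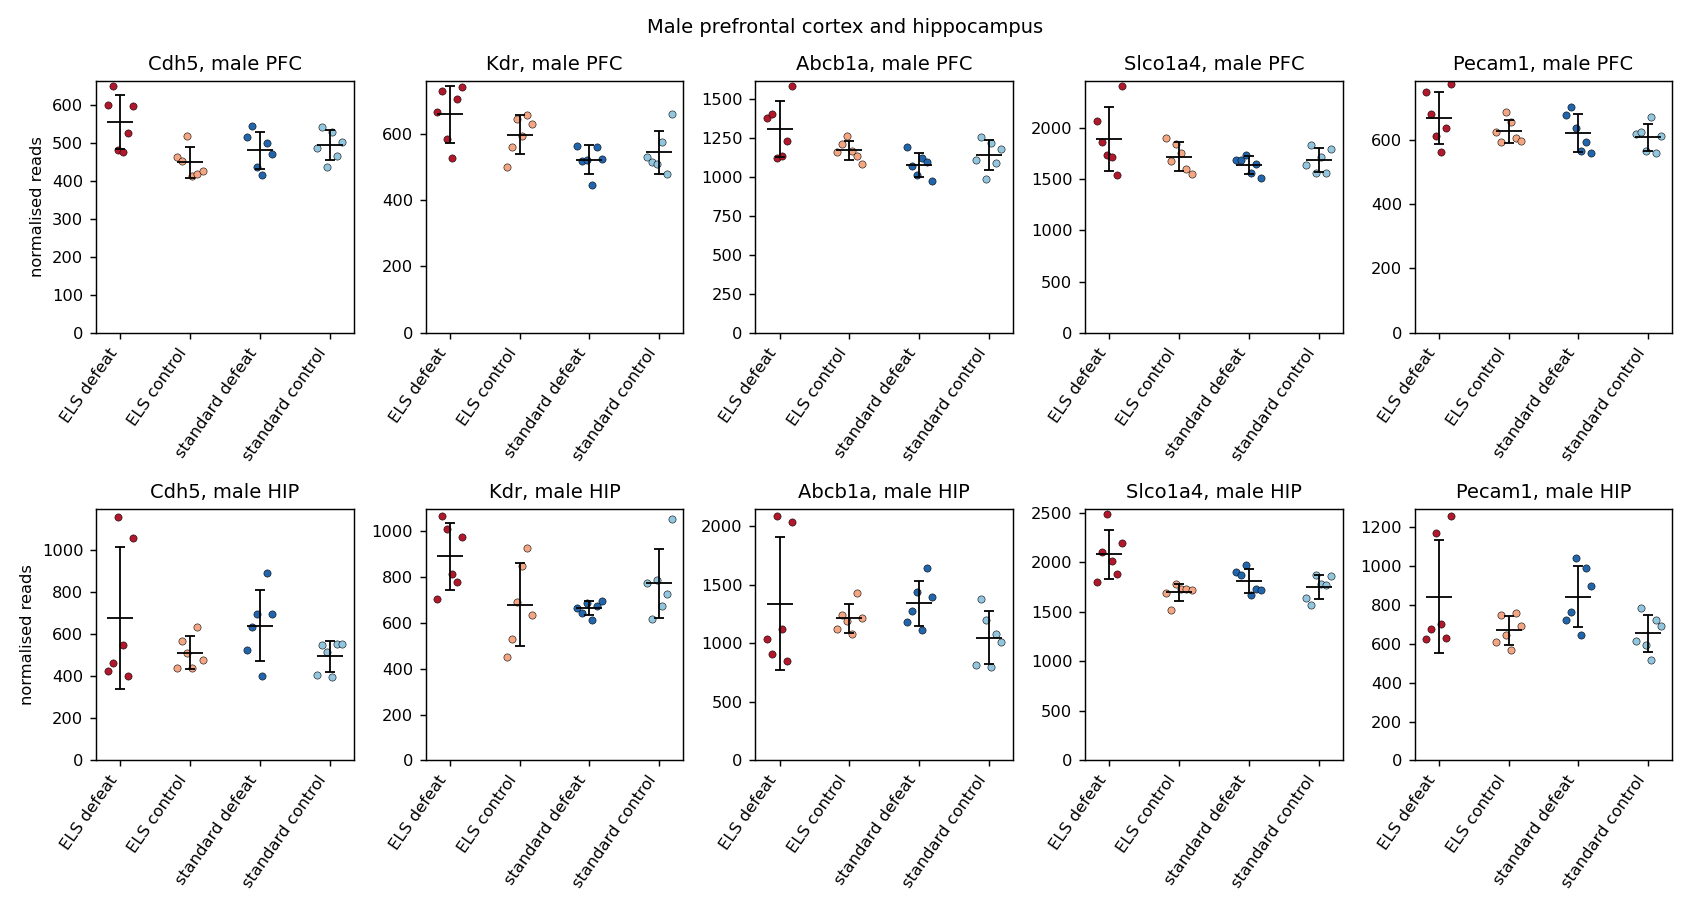
Normalised reads of Cdh5, Kdr, Abcb1a, Slco1a4 and Pecam1 in male PFC (top) and male HIP (bottom), 1 dot per library, with mean ± SD (n = 6 each, y axes start at 0). In HIP the 6 ELS defeat libraries lie above the 6 ELS controls for Slco1a4 (1797 to 2493 against 1519.6 to 1779) and above the 6 standard defeat libraries for Kdr (704 to 1067 against 614 to 695).

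**Figure D5:**
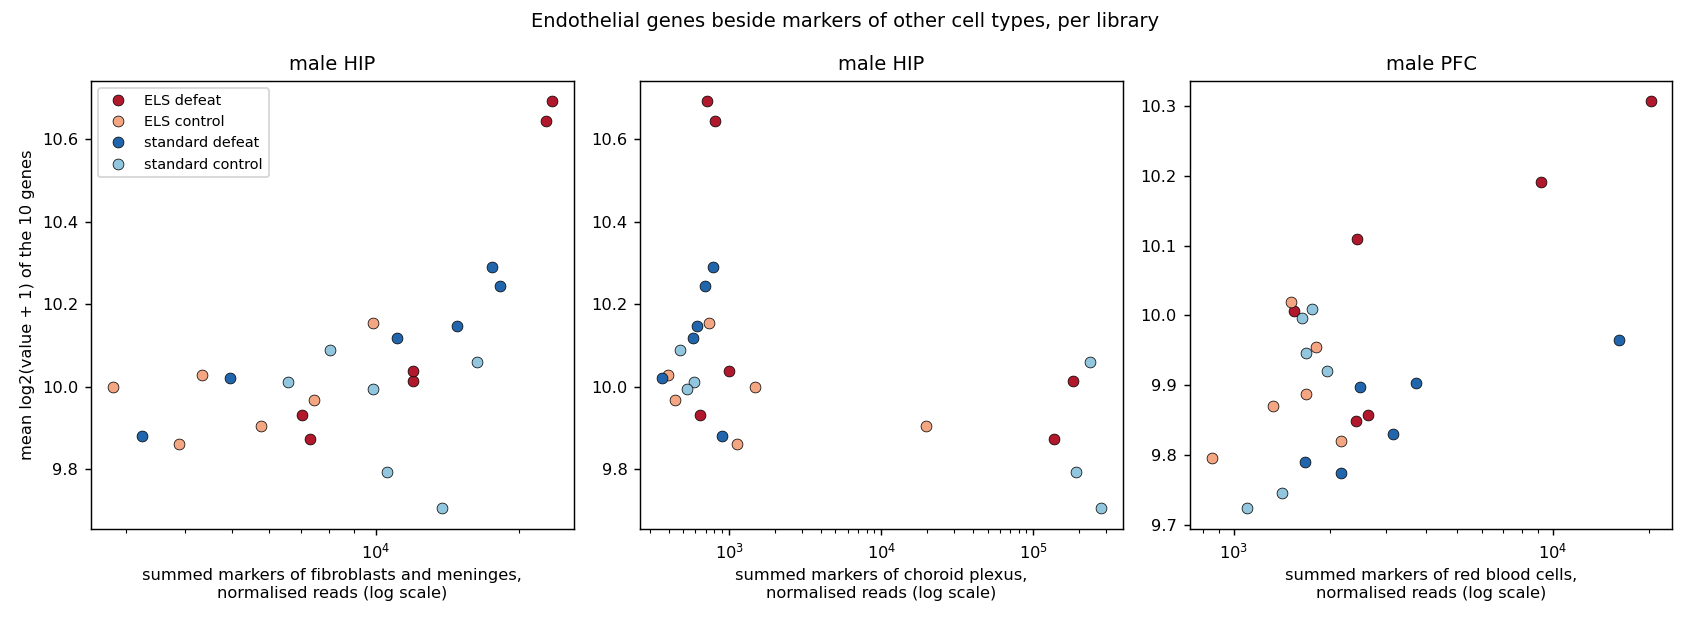
Mean log2(value + 1) of the 10 genes in each library (y axis) against summed markers of another cell type on a log scale (x axis), for fibroblasts and meninges and for choroid plexus in male HIP and for red blood cells in male PFC. In male HIP, ELS defeat 3 and 6, with fibroblast and meninges sums of 23346 and 22748, hold the highest mean values of the endothelial genes.

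In females Tek in NAc was the other value to stand out. ELS without STVS gave 419, 451, 459, 494 and 515 normalised reads, against 475 at the lowest, 525 at the median and 551 at the highest in standard controls. The groups overlapped (-0.16 ± 0.07, adjusted p = 0.432, limma), 11.2% of all genes had an unadjusted p under 0.05, and the log2 fold change was -0.07 without the libraries whose adult label repeats the sex. None of the 10 genes had an unadjusted p under 0.05 in the remaining female NAc comparisons, against 6.16% of all genes for STVS after standard rearing, 2.2% for STVS after ELS and 7.94% for the interaction. The same held in female VTA for ELS alone (4.22%), STVS after standard rearing (4.44%), STVS after ELS (1.34%), ELS among STVS mice (4.2%) and the interaction (2.37%). It held in female PFC as well for the same comparisons (3.29%, 5.04%, 3.25%, 10.6% and 7.91%). For ELS among STVS mice all 10 genes were negative in female NAc (median -0.12) and in female PFC (median -0.13), and none passed.

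Within groups the genes varied together. Over the 114 PFC, HIP and female libraries, after the mean of each of the 20 groups was subtracted from the log2 values, the 45 pairs of the 10 genes had Pearson r from 0.10 to 0.87 with a median of 0.55. The highest were Abcb1a with Tek at 0.87 and Abcb1a with Cdh5 at 0.86, and the lowest was Kdr with Ly6c1 at 0.10. In male VTA the median of the pairs was 0.64, and in male NAc 0.56 over 28 pairs. These libraries share dissection and depth differences, so the values are descriptions. Ranked among 13805 genes, those most like Cldn5 were Cdh5 (0.76), Vtn (0.75), Esam (0.75), Cd93 (0.74), Pecam1 (0.74), Clec14a (0.74), She (0.73), Ephb4 (0.72), Itm2a (0.72) and Tie1 (0.72). Of these, Cdh5 and Pecam1 belong to the 10 genes, and Vtn is a marker of pericytes. Abcb1a ranked 17, Tek 27, Flt1 39, Ly6c1 304, Slco1a4 419 and Kdr 452, and Slc2a1 was last of the 10 at 1597. Mural, fibroblast and macrophage markers ranked among them, with Pdgfrb at 11, Slc6a13 at 23, Col3a1 at 37 and Mrc1 at 50. The order differed in the other tables. Cdh5 ranked 843 in male VTA and 48 in male NAc, Abcb1a 1743 and 523, and Kdr 10 and 70, while Vtn ranked 2797 in male VTA.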

How the data were processed

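Libraries were made from poly-A RNA with an unstranded kit, per the labels' protocols, so antisense partners cannot be separated. The authors deposited 2 tables of a signal in normalised reads (gene counts over 1 factor per library), 1 for male NAc and 1 for PFC, HIP and the females, and the submitters' processing notes name HISAT, HTSeq and mm10 for them. The male VTA table holds RPKM values made by the authors, for which those notes list TopHat2, HTSeq, Bowtie2 2.2.0, SAMtools 0.1.19, MACS2 2.1.1, mm9 and mm10 without their roles. All normalised values were whole multiples of 1 read (100%, tolerance 0.001), which gave whole reads and depth. The 16 chromatin and input samples were left out, and tests stayed within a table.

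For every region and sex 1 limma model (version 3.58.1 in R 4.3.3, robust, with a trend) was fitted to log2(value + 1), a scale that understates changes where values are low. It took the top 14000 genes by mean, or the 14586 genes of male VTA averaging 0.5 RPKM or more, with Benjamini-Hochberg adjusted p under 0.05 as the threshold. Standard controls of the female regions, of male HIP and PFC and of both PFC sexes were fitted together. The design allowed for raw counts, and limma was used because values were normalised. Alternatives were edgeR 4.0.16 on whole reads, no filter, a pseudocount of 0.1, quantile normalisation, a block of replicate numbers, each library left out in turn, omission of the 14 doubted libraries or of the 10 female NAc libraries with a repeated sex label, and, chosen after seeing the data, leaving out 13 libraries high in blood or meningeal markers. The signs of a doubted library were Xist above 200 (male), Ddx3y above 50 or Xist below 0.5 of its region's median (female), or Ttr above 10000 normalised reads. Cldn5 was also tested by exact permutation (scipy 1.17.1). The fit was tested on simulated data first.

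The members and lists were chosen with earlier results of these data known. All 10 members are named, with values by library where an unadjusted p was under 0.05, and up to 3 called genes of largest change per other list in region comparisons, apart from 1 gene that is not reported here. Likeness to Cldn5 used genes with a mean of at least 50 normalised reads. Where whole reads were known, 328 pairs of libraries of 1 group were compared and none was merged, as the lowest chi-square per gene was 2.80. Regions may share mice, which the labels do not say.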

Additional observations from a re-analysis of the deposited data

Results flagged for a closer look

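Of 318 sets of 4 to 6 libraries, 288 of 1 gene in 1 group and 30 of the mean of the genes in a group, 17 held a library far from the others, and chance flags about 1 in 20 sets. The gap of that library to its nearest neighbour is given as a share of the whole range of the group.

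Female PFC held 7 of them. In standard controls, library 6 was the highest for Abcb1a (1646 normalised reads, gap 0.628), Flt1 (3569, gap 0.637), Pecam1 (842, gap 0.726) and Tek (754, gap 0.668). In standard STVS, library 5 was the highest for Abcb1a (1407, gap 0.741) and Cldn5 (1466, gap 0.8), and in ELS STVS library 5 was the highest for Ly6c1 (791, gap 0.68).

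In the other female regions, Kdr was highest in VTA standard STVS 1 (976, gap 0.89), and Ly6c1 in NAc standard STVS 5 (977, gap 0.923), while Pecam1 was lowest in NAc standard control 3 (546, gap 0.663). Standard STVS 1 also had the highest Kdr of all female libraries in NAc (836) and PFC (879), and the highest red blood cell sums of its region, 11938 in VTA, 10457 in NAc and 10846 in PFC.

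In male NAc, Cdh5 was lowest (371, gap 0.694) in library 1 and Slc2a1 highest (3549.8, gap 0.78) in library 3 of defeat after P10-20, and Flt1 was lowest in standard defeat 6 (2331, gap 0.628). In male HIP ELS controls, Slc2a1 was lowest in library 3 (1753, gap 0.843) and Slco1a4 in library 2 (1519.6, gap 0.667). In male VTA, standard defeat 6 was the highest for Cdh5 (6.74 RPKM, gap 0.743) and Pecam1 (8.36 RPKM, gap 0.676).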

How the results depend on the processing

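No alternative called any of the 10 genes in a stress or rearing comparison. Counts of genes called, 0 before, became 1 with a pseudocount of 0.1 for male NAc P10-20 over standard rearing among defeat mice, 1 with no filter and 1 with a pseudocount of 0.1 for the P2-12 interaction, 1 with no filter for female VTA STVS after ELS, and 3 for female NAc ELS among STVS mice without the libraries high in blood or meningeal markers. Leaving out 1 library gave 0 to 70 genes for male NAc P10-20 against P2-12 (70 without P10-20 control 3), 0 to 35 for male PFC defeat after ELS (35 without ELS control 1) and 0 to 3 for female NAc ELS among STVS mice (3 without standard STVS 1). For male against female PFC the 16 genes became 8 with the replicate block, 8 without doubted libraries and 6 to 23 without 1 library.

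In female NAc against PFC the 1 gene called became 0 with no filter, 0 with quantile normalisation, 0 without the libraries with a repeated sex label, 2 with the replicate block and 0 to 2 without 1 library. The log2 fold change of Cldn5 turned its sign without doubted libraries in male PFC (0.015) and male HIP (-0.032) for defeat after standard rearing. Without libraries high in blood or meningeal markers it turned in male HIP for defeat after standard rearing (-0.038) and after ELS (-0.095), and with the replicate block in female PFC for STVS after standard rearing (0.0052). Without 1 library it ranged from -0.061 to 0.17 for male NAc defeat after P10-20, from -0.029 to 0.24 for male HIP defeat after ELS, from -0.00043 to 0.16 for female NAc and from -0.14 to 0.044 for female PFC STVS after standard rearing, and from -0.015 to 0.11 for male HIP against PFC. The cause was not tested. Apart from libraries left out, 517 of 528 counts stayed within 1.5 times.

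The label numbers were not taken as pairs: in no fit did every same-numbered pair correlate above 0.1 (medians -0.06 to 0.17 over the fits). That rule is strict, so failing it does not show that the numbers are unrelated. Same-numbered pairs had a median of 0.17 in female VTA and 0.12 in female PFC, against -0.04 and -0.03 for other pairs. The reverse held in the fit of male and female PFC (-0.06 against 0.02). Female standard STVS 1 was also high in red blood cell markers and STVS 3 low in Xist in all 3 regions, so the same mice may lie behind these numbers. With the block the region comparisons of females called 9, 8 and 2 of the 10 genes. In addition the male NAc numbers, given in accession order, allowed no block. The depth behind the male VTA values is unknown. Small groups of 4 to 6 limit the precision.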
